A study of Mus musculus with 4 samples.

Results

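The AP-1 and immediate-early genes described here are *Fos*, *Fosb*, *Fosl2*, *Jun*, *Junb*, *Jund*, *Egr1*, *Ier2*, *Dusp1* and *Zfp36*. They were taken by gene name, and each matched 1 gene, so that they are 10 of the 28585 genes listed. Their mRNA levels were measured in polymorphonuclear myeloid-derived suppressor cells (PMN-MDSCs), which are neutrophil-like cells that restrain T cells, and were compared between pups with and without a myeloid deletion of *Dhps*. DHPS is the enzyme that starts the hypusine modification of the translation factor eIF5A with spermidine as its substrate. Levels are given as FPKM, that is, sequenced fragments scaled by the length of the transcript and by the size of the library, so that genes can be compared.

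The data are 4 bulk RNA sequencing libraries from the spleens of C57BL/6J pups on postnatal day 7, each made from the total RNA of 300000 PMN-MDSCs, which the study sorts as CD11b+ Ly6Clo/- Ly6G+ cells. The 2 libraries labelled *Dhps* cko came from *Dhps* fl/fl Lysm cre pups, in which Cre is driven from the *Lyz2* (Lysm) locus in myeloid cells and removes the floxed *Dhps* segment. The 2 libraries labelled *Dhps* flox came from *Dhps* fl/fl littermates, so that both groups carry the floxed allele and the presence of Cre cannot be told apart from the loss of *Dhps*. How many pups gave each library is not stated, both sexes were used, and nothing says that libraries 1 and 2 of a genotype came from separate animals or pools, so p-values measure only the spread between these libraries.

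AP-1 is a family of leucine zipper transcription factors in which a FOS protein pairs with a JUN protein, or JUN proteins pair with each other, to bind DNA. Most FOS and JUN genes, with *Egr1* and *Ier2*, belong to the immediate-early genes, which are transcribed within minutes of a stimulus, or of cell handling, without new protein synthesis, largely through MAP kinases that act on SRF and CREB at their promoters. *Dusp1* and *Zfp36* are induced with them and act as brakes, *Dusp1* by removing phosphate from p38 and JNK, and *Zfp36* by directing mRNAs with AU-rich elements to decay.

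The targeted gene, *Dhps*, was at 2.38 and 2.59 FPKM in *Dhps* cko, against 3.57 and 3.11 FPKM in *Dhps* flox (74.4%, adjusted p = 0.629 in limma with Benjamini-Hochberg adjustment). *Lyz2*, which holds the Cre insertion, averaged 2313 against 6709 FPKM. All 12 neutrophil markers were present in every library, with summed levels of 73000 to 79950 FPKM. The libraries were alike in their FPKM sums (304281 to 319286) and in the number of genes at 1 FPKM or more (10611 to 10729). Depth is not given with the values, and spacing between low FPKM values gave only a rough figure of 30300000 to 31700000 mapped fragments per library. At that depth *Egr1*, the member with the fewest reads, would rest on about 646 to 874 fragments, and *Zfp36* on about 10105 to 10933.

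The promoters of these genes are shown first, because the signals that induce them are read there. Of the 10 genes, 8 had an entry among the RefSeq promoters of GRCm38.p6, and the windows below end before the principal annotated transcript of each gene begins. The 5 shown are those that held a CREB and ATF motif or its variant, and *Fosl2*, *Jund* and *Zfp36*, which held none of these, were searched but are not shown. They are written 5′ to 3′ on the strand of the gene, with capitals for TGACG (the core of the CREB and ATF site), TGACGTCA (the whole site), TGACATCA (a variant of it) and TATAAA (the core promoter element that TBP binds).
*Fos*, chr12:85473640-85473889, plus strand: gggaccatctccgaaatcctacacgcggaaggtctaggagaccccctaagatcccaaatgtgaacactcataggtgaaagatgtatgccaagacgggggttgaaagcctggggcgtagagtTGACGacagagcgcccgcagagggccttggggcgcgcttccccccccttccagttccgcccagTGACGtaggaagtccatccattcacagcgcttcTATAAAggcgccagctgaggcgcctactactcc
*Fosb*, chr7:19310052-19310295, minus strand: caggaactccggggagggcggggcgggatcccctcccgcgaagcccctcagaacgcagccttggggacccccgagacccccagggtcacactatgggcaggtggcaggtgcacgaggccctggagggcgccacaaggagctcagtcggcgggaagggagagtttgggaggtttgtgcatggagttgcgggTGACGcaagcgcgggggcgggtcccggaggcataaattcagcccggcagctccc
*Jun*, chr4:95052223-95052472, minus strand: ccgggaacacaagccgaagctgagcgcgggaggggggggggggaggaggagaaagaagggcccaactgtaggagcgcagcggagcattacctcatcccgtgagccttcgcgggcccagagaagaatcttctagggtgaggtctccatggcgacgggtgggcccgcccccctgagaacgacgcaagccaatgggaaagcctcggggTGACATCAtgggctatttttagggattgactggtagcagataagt
*Junb*, chr8:84978749-84978998, minus strand: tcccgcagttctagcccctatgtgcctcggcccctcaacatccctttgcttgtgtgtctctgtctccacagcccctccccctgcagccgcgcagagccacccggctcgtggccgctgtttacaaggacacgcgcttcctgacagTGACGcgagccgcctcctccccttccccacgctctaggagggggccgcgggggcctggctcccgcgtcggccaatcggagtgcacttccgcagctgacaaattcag
*Dusp1*, chr17:26508520-26508722, minus strand: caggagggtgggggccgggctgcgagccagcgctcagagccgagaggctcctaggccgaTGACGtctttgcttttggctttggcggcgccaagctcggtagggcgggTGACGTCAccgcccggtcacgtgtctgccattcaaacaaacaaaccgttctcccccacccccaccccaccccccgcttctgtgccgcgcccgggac

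Searched on both strands over the 250 bases before the RefSeq start, TGACG was found in *Fos*, *Fosb*, *Junb* and *Dusp1*, which is 4 of 8 promoters against 17.8% of all 32851 promoters. Those 32851 promoters were not limited to genes tested in these cells. *Fos* held it 66 and 129 bases before its start, *Fosb* 60 bases, *Junb* 106 bases and *Dusp1* 191 bases before its start. The whole site TGACGTCA, which contains TGACG, was in *Dusp1* alone, 143 bases before the start (1.55% of all promoters). *Jun* held TGACATCA 45 bases before its start (2.93% of all promoters), a motif searched for after its sequence had been read. *Fos* held TATAAA 33 bases before its start (12.4%), and *Zfp36* held the binding motif of SRF, the CArG box, 58 bases before its start (1.47%). Sequence more than 250 bases before a start was not searched, so a motif missing from a window may lie further upstream. The AP-1 site TGANTCA was in none of the 8 windows and in 6.75% of all promoters. GGGCGG, the binding motif of SP1, was in 6 of 8 windows (32.7% of all) and CCAAT in *Jun* and *Junb* (33.8%). Of the TGACG holders, *Fos*, *Fosb* and *Dusp1* are lower in *Dhps* cko below, and *Junb* is near the control level. Whether the motif has a part in these differences was not tested.

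Of the 10 genes, 6 were lower in the *Dhps* cko libraries, namely *Fosb*, *Dusp1*, *Jun*, *Fos*, *Egr1* and *Jund*, with means of 48.6% to 75.4% of those in *Dhps* flox. The other 4 genes, *Junb*, *Ier2*, *Zfp36* and *Fosl2*, had means of 96.0% to 101%. None passed the test across all genes (limma on log2(FPKM + 0.1) with Benjamini-Hochberg adjustment over 17948 genes), in which the smallest adjusted p of the 10 was 0.385. That test called 1 gene (0.00557%), *Gm20716*, a predicted gene at 5.60 and 5.75 FPKM in *Dhps* cko and listed at 0 in both *Dhps* flox libraries. At an unadjusted p under 0.05 in limma, the 6 genes named were lower and none was higher, against 2.28% of all genes tested that were lower and 4.72% that were higher (7.0% in all). In 7 of the 10 genes both *Dhps* cko libraries lay below both *Dhps* flox libraries, against 16.0% of all genes, and in none did they lie above, against 20.0%. In 8 of the 10 the log2 fold change was below 0, against 47.8% of all genes. These 10 genes were chosen with earlier results of these data known, so their contrasts with all genes are description, not a test. Their median was -0.41 on the log2 scale, beside 0.01 for all genes tested. Since a fold change on this scale is taken after 0.1 is added, it understates the change of low genes slightly. In bulk RNA, fewer cells that express a gene and less of its mRNA per cell cannot be told apart.

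**Figure D1:**
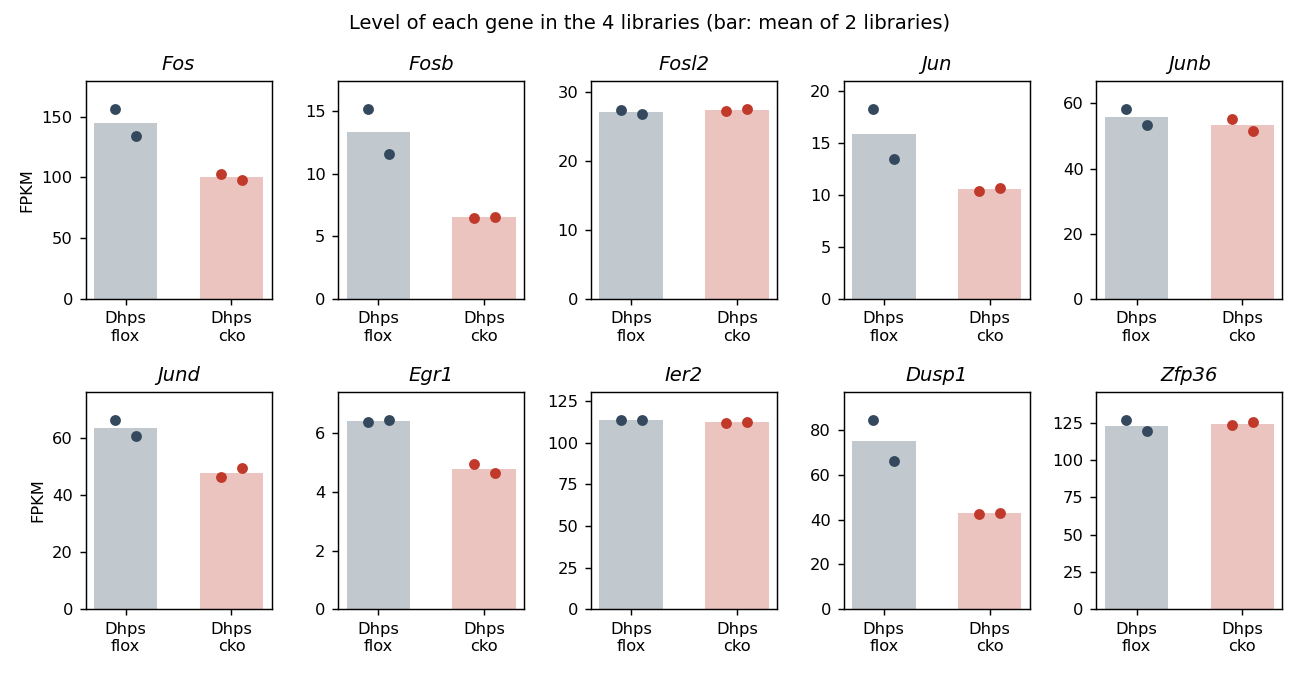
The level of each gene (FPKM, y axis from 0) is shown for the 2 Dhps flox libraries (grey) and the 2 Dhps cko libraries (red), with points for libraries and bars for their mean. Fos, Fosb, Jun, Jund, Egr1 and Dusp1 stand lower in both Dhps cko libraries, while the points of Fosl2, Junb and Zfp36 overlap and those of Ier2 lie between 111.59 and 113.45 FPKM.

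Within the FOS family, *Fos* and *Fosb* were lower in *Dhps* cko and *Fosl2* was near the control level. *Fos* (chr12:85473890-85477273 in GRCm38, plus strand, 4 exons) is the classical partner of JUN in AP-1 and was among the most abundant of the 10 genes. Its level was 103 and 97.6 FPKM in *Dhps* cko and 156 and 134 FPKM in *Dhps* flox. Both *Dhps* cko libraries lay below both *Dhps* flox libraries, at 69.1% of their mean. The log2 fold change was -0.53 ± 0.088 (SE), with adjusted p = 0.454 in limma with Benjamini-Hochberg adjustment. The 95% interval ran from 59.2% to 81.1% of the *Dhps* flox level. Among the 10629 genes that averaged 1 FPKM or more, 172 had a log2 fold change as low or lower, *Fos* included.

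*Fosb* (chr7:19302696-19310051, minus strand, 4 exons), a close relative of *Fos* whose protein also pairs with JUN proteins, showed the lowest ratio of the 10. It was at 6.49 and 6.51 FPKM in *Dhps* cko and at 15.2 and 11.6 FPKM in *Dhps* flox. The *Dhps* cko pair was almost identical and below both controls, at 48.6% of the *Dhps* flox mean. The log2 fold change was -1.02 ± 0.14 (SE, adjusted p = 0.385 in limma with Benjamini-Hochberg adjustment), and 42 of the 10629 genes were as low or lower. The interval, 38.5% to 63.4% of *Dhps* flox, lay wholly below that of *Fosl2*.

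*Fosl2* (chr5:32135801-32157842, plus strand, 4 exons), which encodes FRA-2, a member that is not as transient as *Fos*, was at 27.3 and 27.5 FPKM in *Dhps* cko and at 27.4 and 26.8 FPKM in *Dhps* flox. These ranges overlapped, and the log2 fold change was 0.02 (95% interval -0.13 to 0.16). The interval spans 91.5% to 112% of the *Dhps* flox level. The summed FPKM of the 3 genes was 137 and 132 in *Dhps* cko and 198 and 172 in *Dhps* flox (72.3%). *Fosl2* therefore made up 20.0% and 20.9% of the family sum in *Dhps* cko, against 13.8% and 15.5% in *Dhps* flox. The share of *Fosb* was 4.75% and 4.95% against 7.64% and 6.73%, and that of *Fos* 75.3% and 74.2% against 78.6% and 77.7%. None of these shares overlapped between the genotypes, but 2 libraries against 2 cannot give an exact two-sided permutation p below 0.333, which each of them had.

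In the JUN family, *Jun* and *Jund* were lower in both *Dhps* cko libraries and *Junb* was near the control level, although the 95% intervals of *Jun* and *Jund* overlapped that of *Junb* and the difference between them was not tested. *Jun* (chr4:95049034-95052222, minus strand, 1 exon) encodes the strongest activator of the family and is induced through JNK. Its level was 10.4 and 10.7 FPKM in *Dhps* cko and 18.3 and 13.5 FPKM in *Dhps* flox. All of the *Dhps* cko values lay below the controls, which differed from each other by 1.35-fold. The log2 fold change was -0.57 ± 0.15 (SE), with adjusted p = 0.568 in limma with Benjamini-Hochberg adjustment. Without *Dhps* flox replicate 1 it was -0.35. An antisense gene, *Junos*, covers 7.28% of the exon bases of *Jun* and was at 2.71 and 2.69 FPKM against 2.47 and 2.97 FPKM, and the strand of the libraries is not given in the sources used here.

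*Jund* (chr8:70698949-70700616, plus strand, 1 exon) encodes a JUN protein that most cells keep at a steady level. It was at 46.3 and 49.6 FPKM in *Dhps* cko and at 66.3 and 60.7 FPKM in *Dhps* flox, again with no overlap and at 75.4% of the control mean. On the log2 scale the difference was -0.41 ± 0.072 (SE, adjusted p = 0.482 in limma with Benjamini-Hochberg adjustment). *Gm11175*, annotated on the opposite strand over 52.6% of the exon bases of *Jund*, was at 0.20 and 0.23 FPKM in *Dhps* cko and 0.38 and 0.28 FPKM in *Dhps* flox. Reads of *Jund* and *Gm11175* cannot be told apart there without strand, and how far this affects the value of *Jund* was not tested.

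*Junb* (chr8:84974484-84978718, minus strand, 1 exon), whose protein can hold back JUN at some targets, was at 55.4 and 51.5 FPKM in *Dhps* cko and at 58.2 and 53.2 FPKM in *Dhps* flox. The genotypes overlapped, with a log2 fold change of -0.06 (95% interval -0.25 to 0.13). The family sum was 112 FPKM in both *Dhps* cko libraries and 143 and 127 FPKM in the *Dhps* flox libraries (82.9%). *Junb* held 49.4% and 46.1% of that sum in *Dhps* cko and 40.7% and 41.8% in *Dhps* flox, and so was the leading JUN gene in *Dhps* cko, whereas *Jund* led in *Dhps* flox with 46.5% and 47.6%. *Jund* held 41.3% and 44.4% in *Dhps* cko, and *Jun* 9.31% and 9.58% against 12.8% and 10.6%. The exact permutation p of each share was again 0.333.

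**Figure D2:**
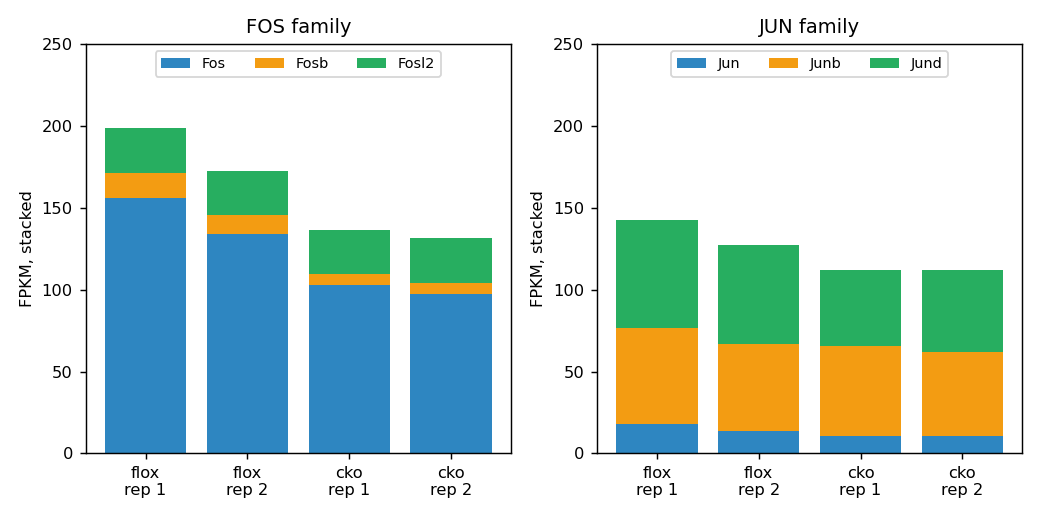
Stacked bars give the FPKM (y axis) of Fos, Fosb and Fosl2 (left) and of Jun, Junb and Jund (right) in each library. The FOS stack is 198 and 172 FPKM high in Dhps flox and 137 and 132 in Dhps cko, while the Fosl2 and Junb segments are of similar height in all 4 libraries.

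Of the other two transcriptional regulators, *Egr1* was lower in *Dhps* cko and *Ier2* was near the control level. *Egr1* (chr18:34859823-34864984, plus strand, 2 exons), a zinc finger transcription factor induced through ERK and SRF, was the least abundant of the 10 genes. It was at 4.93 and 4.62 FPKM in *Dhps* cko and at 6.38 and 6.43 FPKM in *Dhps* flox. Here the controls were the closer pair, and both *Dhps* cko libraries lay below them, at 74.6% of their mean. The difference on the log2 scale was -0.42 ± 0.088 (SE, adjusted p = 0.488 in limma with Benjamini-Hochberg adjustment). *Ier2* (chr8:84661331-84662852, minus strand, 1 exon), a small nuclear regulator of early response, was at 111.59 and 112.60 FPKM in *Dhps* cko and at 113.36 and 113.45 FPKM in *Dhps* flox. Although these pairs did not overlap, the means differed by little (98.8%), with a log2 fold change of -0.02 (95% interval -0.14 to 0.11).

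Of the 2 feedback genes, *Dusp1* was lower in *Dhps* cko and *Zfp36* was near the control level. *Dusp1* (chr17:26505590-26562128, minus strand) was at 42.5 and 43.0 FPKM in *Dhps* cko and at 84.3 and 65.9 FPKM in *Dhps* flox. That span covers all its transcripts, and the principal transcript used here has 4 exons and starts at 26508519. The *Dhps* cko pair was tight and well below both controls, at 57.0% of their mean. This was a log2 fold change of -0.80 ± 0.12 (SE, adjusted p = 0.407 in limma with Benjamini-Hochberg adjustment), and 73 of the 10629 genes were as low or lower. *Zfp36* (chr7:28376784-28380253, minus strand, 2 exons), which encodes tristetraprolin, was at 124 and 125 FPKM in *Dhps* cko and at 127 and 119.5 FPKM in *Dhps* flox. These values overlapped, with a log2 fold change of 0.02 (95% interval -0.13 to 0.16). The ratio of *Dusp1* to *Zfp36* was 0.344 and 0.343 in *Dhps* cko and 0.665 and 0.551 in *Dhps* flox.

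**Figure D3:**
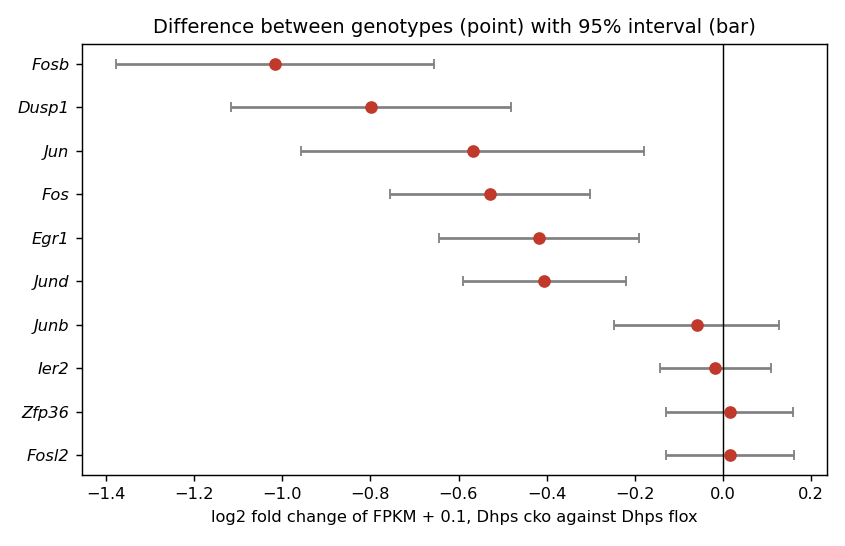
Points give the log2 fold change of FPKM + 0.1 in Dhps cko against Dhps flox (x axis) for each gene, and bars the 95% interval from limma with 2 libraries per genotype, not adjusted for the number of genes. The intervals of Fosb, Dusp1, Jun, Fos, Egr1 and Jund lie below 0, and those of Junb, Ier2, Zfp36 and Fosl2 span it.

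Leaving out 1 library moved the size of several differences but not the order of the 2 sets of genes. *Fosb* ranged from -0.83 to -1.21 on the log2 scale, *Dusp1* from -0.62 to -0.98, *Jun* from -0.35 to -0.78 and *Fos* from -0.42 to -0.64. In each of these the smallest difference came without *Dhps* flox replicate 1 and the largest without *Dhps* flox replicate 2. *Jund* ranged from -0.34 to -0.47 and *Egr1* from -0.37 to -0.46. Without *Dhps* cko replicate 1 the log2 fold change of *Jun* was -0.55 and that of *Fos* -0.57. Without *Dhps* cko replicate 2 they were -0.59 and -0.49. With 1 *Dhps* cko library left, the spread between libraries of a gene came from the *Dhps* flox pair alone. The lone library was assumed to vary like that pair, so only the sizes are given here.

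**Figure D4:**
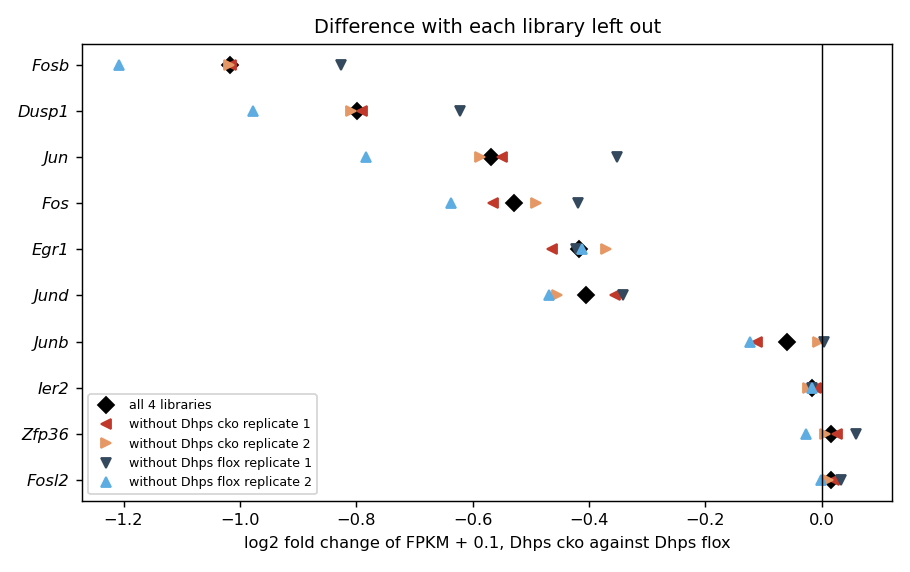
The log2 fold change of FPKM + 0.1 in Dhps cko against Dhps flox (x axis) is shown for all 4 libraries (black) and with each library left out (coloured triangles). Fosb, Dusp1, Jun, Fos, Egr1 and Jund stay at or below -0.34, and Junb, Ier2, Zfp36 and Fosl2 lie near 0.

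The spread between libraries was itself uneven. In 8 of the 10 genes the SD was larger in *Dhps* flox than in *Dhps* cko, and in 8 of the 10 *Dhps* flox replicate 1 was above *Dhps* flox replicate 2. The ratio between these control libraries was 1.35 for *Jun*, 1.31 for *Fosb*, 1.28 for *Dusp1* and 1.16 for *Fos*. For *Egr1* and *Ier2* it was 0.992 and 0.999. *Fosb*, *Dusp1* and *Jun*, which had the lowest ratios between genotypes, were thus also the genes in which the control libraries differed most from each other.

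Set in order of FPKM in *Dhps* flox, the genes ran from *Fos* (145 ± 15.5, SD, n = 2) through *Zfp36* (123 ± 5.13), *Ier2* (113 ± 0.0636), *Dusp1* (75.1 ± 13.0), *Jund* (63.5 ± 3.95), *Junb* (55.7 ± 3.49), *Fosl2* (27.1 ± 0.445), *Jun* (15.9 ± 3.35) and *Fosb* (13.4 ± 2.51) to *Egr1* (6.41 ± 0.0354). Among neighbours in that order, *Dusp1* and *Jund*, and *Jun* and *Fosb*, overlapped between libraries. In *Dhps* cko the order was *Zfp36* (124 ± 1.21), *Ier2* (112 ± 0.714), *Fos* (100.2 ± 3.65), *Junb* (53.4 ± 2.72), *Jund* (47.9 ± 2.36), *Dusp1* (42.8 ± 0.368), *Fosl2* (27.4 ± 0.134), *Jun* (10.6 ± 0.198), *Fosb* (6.5 ± 0.0141) and *Egr1* (4.78 ± 0.219), with no overlap between neighbours. *Fos* stood first in *Dhps* flox and behind *Zfp36* and *Ier2* in *Dhps* cko, and *Dusp1* stood above *Jund* and *Junb* in *Dhps* flox and below both in *Dhps* cko.

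The structure of the genes, which played no part in choosing them, was compared with that of other coding genes. In GENCODE M21, 4 of the 10 have 1 exon (*Jun*, *Junb*, *Jund* and *Ier2*), against 3.30% of the 12557 coding genes tested. Their median transcript length was 2449 bases, against 2860. ATTTA, the core of the AU-rich element, occurred at least once in the 3′ UTR of 9 of the 10 (64.2% of the coding genes) and at least 3 times in 5 (32.9%). The nonamer TTATTTATT, the motif that tristetraprolin binds best, was in the 3′ UTR of *Fos*, *Fosl2*, *Dusp1* and *Zfp36* (6.96% of the coding genes). Of these 4 genes, *Fos* and *Dusp1* were lower in *Dhps* cko, and *Fosl2* and *Zfp36* were near the control level. Whether the motif has a part in the genotype difference was not tested.

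Related genes were then read from the same fit. Of 13 other AP-1 family genes, 11 could be tested, 7 with a log2 fold change below 0 and 4 above, against 47.8% of all genes below 0. None had an unadjusted p under 0.05 in limma, against 7.0% of all genes, which for a list of this length is near the background. *Jdp2*, which encodes a repressive partner of JUN and was the most abundant of them, was at 34.9 and 38.9 FPKM in *Dhps* cko and 37.8 and 38.5 FPKM in *Dhps* flox. Their median log2 fold change was -0.05, which became -0.10 without *Dhps* cko replicate 1 and -0.03 without *Dhps* cko replicate 2. Both *Dhps* cko libraries lay below both controls in 4 of the 11 genes, against 16.0% of all genes, and above them in 2, against 20.0%.

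Of 35 other immediate-early genes, 32 could be tested, 23 with a log2 fold change below 0 and 9 above, with a median of -0.11. In limma 6 were lower at an unadjusted p under 0.05 and 6 were higher, against 2.28% and 4.72% of all genes, and none passed with Benjamini-Hochberg adjustment, where the lowest adjusted p was 0.363. *Cxcl2*, a chemokine that draws neutrophils, was at 5.67 and 5.30 FPKM in *Dhps* cko and 14.4 and 9.73 FPKM in *Dhps* flox. *Sik1*, a kinase gene induced through CREB, was at 20.9 and 19.4 FPKM against 28.6 and 27.8 FPKM. *Nfkbiz*, a nuclear partner of NF-κB, was at 10.6 and 10.5 FPKM against 15.5 and 13.8 FPKM. Over the whole list both *Dhps* cko libraries lay below both controls in 13 of 32 genes, against 16.0% of all genes, and above them in 7, against 20.0%.

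*Tnf*, which encodes the inflammatory cytokine, went the other way, at 22.8 and 22.5 FPKM in *Dhps* cko against 15.8 and 16.3 FPKM in *Dhps* flox (log2 fold change 0.49 ± 0.061, SE, adjusted p = 0.363 in limma with Benjamini-Hochberg adjustment). The other genes with an unadjusted p under 0.05 were *Trib1*, *Klf2* and *Ptgs2*, which were lower, and *Ier3*, *Socs3*, *Pim1*, *Myc* and *Egr3*, which were higher, and these 8 are named after their values were seen. *Trib1* was at 15.1 and 14.7 FPKM against 35.3 and 23.8 FPKM, a gap of the size seen in *Fosb*. *Egr3*, a relative of *Egr1*, was at 0.39 and 0.44 FPKM against 0.17 and 0.22 FPKM, opposite in direction to *Egr1*. The most abundant gene of this list, *Mcl1*, which protects neutrophils from apoptosis, was at 120.5 and 134 FPKM against 146 and 123 FPKM, and its genotypes overlapped.

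Genes upstream of the response, and genes with related roles, were counted in the same way. Of the 24 MAP kinase and SRF input genes tested, none had an unadjusted p under 0.05 in limma, against 7.0% of all genes, and their median log2 fold change was -0.01. *Rps6ka1*, a kinase downstream of ERK and the most abundant of them, was at 158 and 159 FPKM in *Dhps* cko and 153 and 165 FPKM in *Dhps* flox. The same count was 0 of 7 for other MAP kinase phosphatases (median 0.05), 0 of 12 for *Zfp36* paralogs and AU-rich element decay genes (median -0.03) and 0 of 10 for heat shock genes, which respond to handling of cells (median -0.05). Against a share of 7.0% over all genes, counts of 0 in lists of this length are near the background and say nothing particular about these lists. Both *Dhps* cko libraries lay below both controls in 7 of 24, 2 of 7, 4 of 12 and 1 of 10 genes of these lists, in the order given, against 16.0% of all genes. They lay above both controls in 4, 1, 0 and 3, against 20.0%. The medians of all 4 lists changed sign with 1 library left out. Without *Dhps* flox replicate 1 that of the heat shock genes was 0.11 and that of the phosphatases -0.05, and without *Dhps* flox replicate 2 the heat shock median was -0.11 and the MAP kinase and SRF median 0.02. Without *Dhps* cko replicate 1 the phosphatase median was -0.06, and without *Dhps* cko replicate 2 the median of the decay genes was 0.0081 and that of the heat shock genes 0.03. *Dusp6*, the phosphatase of ERK, was at 31.7 and 34.4 FPKM against 35.4 and 36.2 FPKM, *Zfp36l2* at 64.1 and 60.5 FPKM against 62.5 and 64.4 FPKM, and *Hspa8* at 104 and 106 FPKM against 97.7 and 96.0 FPKM. These are mRNA levels, and the activity of the kinases was not measured here.

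**Figure D5:**
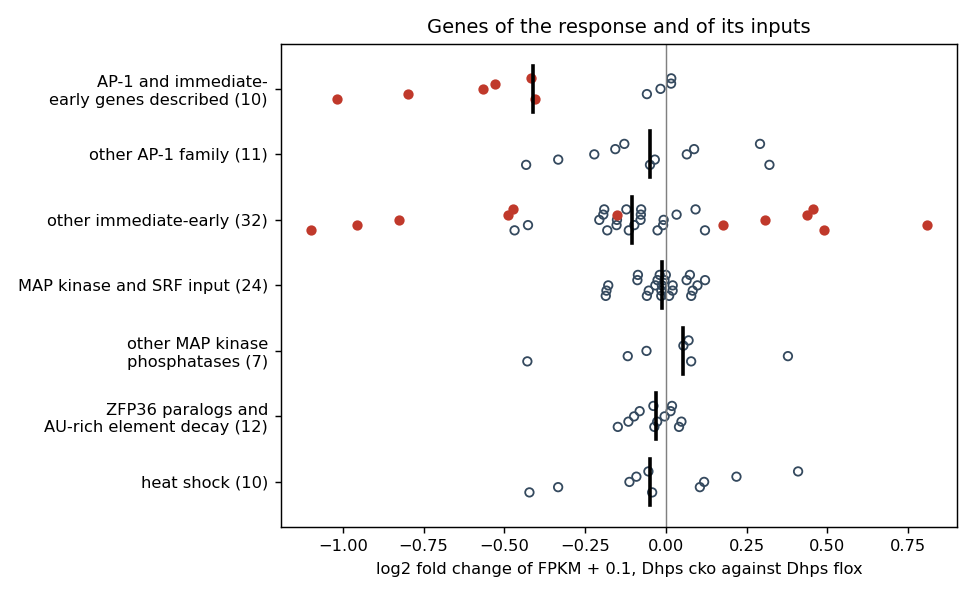
Each circle is 1 gene, placed by its log2 fold change of FPKM + 0.1 in Dhps cko against Dhps flox (x axis), in rows by gene list with the number tested in brackets, and filled where the unadjusted p in limma was under 0.05. Black bars mark medians, which are -0.41 for the 10 AP-1 and immediate-early genes and between -0.11 and 0.05 for the other lists.

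Markers of other cell types were read from the same fit, in which none passed with Benjamini-Hochberg adjustment and 4.72% of all genes were higher and 2.28% lower at an unadjusted p under 0.05 in limma. All 8 B cell markers had a log2 fold change above 0, 5 of them with an unadjusted p under 0.05 in limma, and their summed level was 66.1 and 68.4 FPKM in *Dhps* cko against 41.9 and 51.5 FPKM in *Dhps* flox. All 8 T cell markers were above 0 (3 with p under 0.05 in limma), with sums of 18.5 and 15.0 FPKM against 11.9 and 8.01 FPKM. All 10 monocyte and macrophage markers were above 0 (4 with p under 0.05 in limma), with sums of 166 and 171 FPKM against 137 and 131 FPKM. All 6 eosinophil markers were above 0 (2 with p under 0.05 in limma), with sums of 97.0 and 92.2 FPKM against 79.3 and 81.4 FPKM. Of the 12 neutrophil markers, 10 were above 0 and only *Ly6g* (named after its value was seen) had p under 0.05 in limma, at 222 and 242 FPKM against 195 and 185 FPKM. Erythroid markers summed to 322 and 376 FPKM against 271 and 408 FPKM, and platelet markers to 3.17 and 2.2 FPKM against 1.66 and 4.37 FPKM, and in both the genotypes overlapped. No marker was at 0 in any library. The 4 Y-linked genes were all below 0 with p under 0.05 in limma, and summed to 7.07 and 8.07 FPKM against 17.6 and 15.6 FPKM (45.5%). The part of these other cells, and of the sex of the pups, in the differences of the AP-1 and immediate-early genes was not tested.

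The genes most like the mean profile of the 10 across the 4 libraries, by the smallest root-mean-square difference of centred log2(FPKM + 0.1), were *Zfp622* (0.0213), *Mastl* (0.0243) and *Gm12346* (0.0310). *Zfp622* was at 6.16 and 5.96 FPKM in *Dhps* cko and 8.54 and 7.63 FPKM in *Dhps* flox. With 4 libraries such a likeness rests on few values and is given as a description.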

How the data were processed

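Total RNA from splenic PMN-MDSCs was sequenced on an Illumina NovaSeq, giving 4 libraries, 2 per genotype, grouped by the genotype label. The deposited values are FPKM per gene, which the authors made by trimming reads with Cutadapt, aligning them with HISAT2 to the mouse genome (mm10 in the submitters' processing notes) and estimating abundance with StringTie and ballgown. The annotation, strand and read depth are not given in the sources used here. FPKM are relative to all mapped fragments, so that a few abundant genes can lower the others. The top 10 genes held 29.9% to 31.4% of each library's FPKM sum.

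Deposited FPKM were put on a log2(FPKM + 0.1) scale for the 17948 genes that averaged 0.1 FPKM or more, and genotypes were compared in limma 3.58.1 under R 4.3.3 (eBayes with trend, Benjamini-Hochberg adjustment over all genes, threshold 0.05). Family shares were compared by exact two-sided permutation over libraries, and lists were described by counts and medians. The fit was tested on simulated data. Other steps ran in Python 3.11.15 (pandas 2.3.3, numpy 2.4.6, matplotlib 3.10.9, scipy 1.17.1). Depth was estimated from the steps of low FPKM values in genes with 1 exon. At the best step 38.6% to 40.1% of these values lay within 0.15 of a whole fragment, where 30% would by chance, so counts were not recovered and no count test was run. Coordinates, exons and UTRs are those of GENCODE M21 (GRCm38), which holds 28511 of the 28585 identifiers, and 74 were not matched.

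The 10 genes and all lists were chosen with earlier results of these data known. The genes named were the 10, *Dhps*, up to 4 genes of each pathway list that averaged 1 FPKM or more, with the smallest unadjusted p under 0.05, the most abundant gene of each pathway list, and the 3 genes nearest to the mean profile. Cell type markers are given as sums, except *Ly6g*. Outside this rule, *Lyz2* is named as the site of Cre, *Junos* and *Gm11175* as antisense neighbours and *Gm20716* as the 1 gene called, and *Ly6g*, *Trib1*, *Klf2*, *Ptgs2*, *Ier3*, *Socs3*, *Pim1*, *Myc* and *Egr3* were named after their values were seen. Alternatives were the pseudocount, the filter on low values, the scaling between libraries, the variance trend, a replicate block and leaving out each library.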

Additional observations from a re-analysis of the deposited data

How the results depend on the processing

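Across 14 alternatives, *Fosb*, *Dusp1*, *Jun*, *Fos*, *Egr1* and *Jund* had a log2 fold change below 0 in each, and none of the 10 genes had a Benjamini-Hochberg adjusted p under 0.05 in limma. Their lowest adjusted p was 0.120, for *Fosb* with genes of at least 1 FPKM only. The median of the 10 genes was between -0.35 and -0.44. The number of all genes with an adjusted p under 0.05 was 1, and was 0 with a pseudocount of 0.01, 0 without a filter, 0 with the replicate block, 4 with genes of at least 1 FPKM, 2 after quantile normalization, and 0 to 0 with each library left out. Leaving out each library gave medians of -0.036 to -0.15 for the other immediate-early genes. Of the 4 genes near the control level, *Ier2* was below 0 in each alternative and the others changed sign: *Fosl2* was at -0.016 with TPM scaling, -0.0018 after quantile normalization and -0.00027 to 0.033 with a library left out, *Junb* was at -0.12 to 0.0049 with a library left out, and *Zfp36* was at -0.016 with TPM scaling, -0.033 after quantile normalization, -0.023 with centring within 10 classes of transcript length and -0.027 to 0.058 with a library left out. Same-numbered libraries did not deviate together (r = -0.06 across 10629 genes), so the numbers were not taken as pairs. With the replicate block in limma, 6 of the 10 genes were lower at an unadjusted p under 0.05 and their median was -0.41. In that fit 363 of all 17948 genes were lower and 719 higher at the same threshold. Among all genes with an unadjusted p under 0.05, 410 were lower and 847 higher, which became 494 and 633 with TPM scaling and 534 and 600 with length centring. Without *Dhps* cko replicate 1 they were 414 and 412, and with another library left out 279 to 662 lower and 467 to 946 higher. The cause of these shifts was not tested. There were 2 libraries per genotype, depth is unknown, and no detection limit was computed.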
